A study of Sus scrofa with 95 samples.

Results

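Type I interferon stimulated genes were followed in 5 organs of infant swine after cardiopulmonary bypass. The set was given as a list of 43 symbols, and 41 of the 35670 genes in the count table matched it. RIGI and DDX58 are names of the same gene, RTP4 had no row, and BST2 was matched through its gene ID because the table gives it no symbol. The symbols were chosen by name, but with earlier results of these data known.

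Poly(A) RNA from heart (left ventricle), terminal ileum, renal cortex, liver and lung (lower right lobe) was sequenced in each of 19 pigs weighing 5 to 10 kg, which gave 95 libraries. In the linrodostat arm, 4 pigs had cardiopulmonary bypass (CPB, circulation by an external pump and oxygenator) with deep hypothermic circulatory arrest of 75 minutes and received 75 mg of linrodostat, an inhibitor of the tryptophan-degrading enzyme IDO1. In the CPB arm, 7 pigs had the same operation and the same arrest time without drug. In the control arm, 8 pigs had anesthesia alone, so both other arms share these controls, and no arm received the drug without the operation. Every arm held male and female pigs.

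Type I interferons are cytokines that cells release after sensing viral or misplaced nucleic acid. They bind the receptor IFNAR1/IFNAR2, the kinases JAK1 and TYK2 phosphorylate STAT2, which joins IRF9 in a complex that switches on interferon stimulated genes. The products of those genes block viral entry, translation and replication, sense foreign RNA and DNA, and tune the pathway itself. In whole tissue, an interferon stimulated transcript can come from parenchymal cells, endothelium or immune cells, and fewer cells of a type and less RNA per cell cannot be told apart in these bulk samples.

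The 41 genes were the IFIT family (4 genes), ISG15 and its conjugation (6), MX GTPases and OAS enzymes (5), PARP9 with DTX3L and PARP14 (3), nucleic acid sensors (4), other antiviral effectors (16) and signalling or transcription factors (3). RefSeq gave 39 of them a position on the pig assembly Sscrofa11.1, and 16 lay within 100 kb of another member. On chromosome 14, IFIT2 (chr14:101193421-101204292), IFIT3 (chr14:101214730-101225169) and IFIT1 (chr14:101237403-101249486) stand in a row. On chromosome 13, MX2 (chr13:204798633-204821612) lies beside MX1 (chr13:204843049-204868927). DTX3L and PARP9 overlap by 395 bases, and whether counting used strand is not given in the sources used here. The IFIT, MX and OAS genes are paralogs that could share reads, so the split of counts within each family is uncertain, and BST2 held values that were not whole numbers in over 50% of its libraries.

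Library totals ran between 19956859 and 53627723 counts, the lowest in the heart (19956859 to 27219451) and the highest in the lung (30057048 to 53627723). Levels below are in CPM, the gene's counts scaled to the normalized library size within an organ. All 41 genes passed the filter on low counts in every organ. The summed marker genes of heart, kidney, liver and lung separated the labelled organ from all other libraries, by at least 10.6-fold for the kidney. Of 7 ileal markers, CDH17, an intestinal cadherin, was the 1 that separated all ileal libraries (lowest ileal 123 CPM, highest elsewhere 16 CPM), and FABP6, the ileal bile acid binding protein, ranged between 10.5 and 7191 CPM within the ileum. Heart libraries carried batch label 2 and those of the other organs batch label 1, so heart and batch cannot be told apart.

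Resting levels in the control pigs differed by organ. With all 95 libraries normalized together, the control median was highest in the liver for 17 of 41 members, in the lung for 14 and in the ileum for 10, and lowest in the kidney for 22 and in the heart for 17. STAT2, a signal transducer of the interferon receptor, had a control median of 756 CPM in the liver (623 to 1062) and 77.6 CPM in the heart. OASL, an OAS-like protein that enhances RNA sensing, had a control median of 33.1 CPM in the ileum (21.7 to 67.9) and 0.933 CPM in the kidney, 35.5 times as high in the ileum. ADAR, an RNA-editing enzyme, differed least, with a ratio of 1.44 between the organs with its highest and lowest medians. MX1, a GTPase that blocks viral nucleocapsids, had control medians of 421 CPM in the liver, 358 in the lung, 212 in the ileum, 138 in the kidney and 91.1 in the heart. Neighbouring organs in that order overlapped widely for MX1, since its control values ran between 221 and 3688 CPM in the liver and between 131 and 1715 CPM in the lung.

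The members were lower after CPB than in controls in 4 of the 5 organs, in part. At a Benjamini-Hochberg adjusted p under 0.05 by edgeR's quasi-likelihood test, 5 of 41 fell in the heart, 0 in the ileum, 4 in the kidney, 10 in the liver and 4 in the lung, and 0 rose in any organ. The share of all tested genes called lower was 5.53% in the heart, 0% in the ileum, 9.86% in the kidney, 11.3% in the liver and 2.62% in the lung, and called higher 6.39%, 0%, 11.3%, 15.6% and 2.08%. With all animals in, the kidney count of 4 of 41 was therefore near its background, while the heart, liver and lung counts stood above theirs. In the ileum, 4 members had an unadjusted p under 0.05, against 5.22% of all genes, and DESeq2 and limma-voom called 0 there. Unadjusted p was under 0.05 for 29 members in the heart, 20 in the kidney, 18 in the liver and 37 in the lung, against 28%, 35.4%, 39.3% and 22.2% of all genes.

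The direction was shared more widely than the calls. The log2 fold change (CPB over control) was below 0 for 41 members in the heart, 33 in the ileum, 40 in the kidney, 40 in the liver and 41 in the lung, where 51.5%, 53.7%, 52.4%, 52.2% and 48% of all tested genes of those organs were below 0. The median log2 fold change of the members was −1.20 in the heart, −0.19 in the ileum, −1.10 in the kidney, −1.08 in the liver and −1.19 in the lung. Because each pig gave all 5 organs, an animal that is high or low in every organ moves all 5 medians. The CPB and control ranges overlapped for all members in every organ with 1 exception, IFI35 in the ileum, where CPB lay wholly below control for 0.0895% of all tested genes (heart 1.24%, kidney 1.33%, liver 1.16%, lung 0.375%). Across organs, 17 members were called at least once, IFIT2 in 4 organs, OASL, SAMD9 and STAT2 in 2 each and 13 in 1, and 24 in none.

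**Figure D1:**
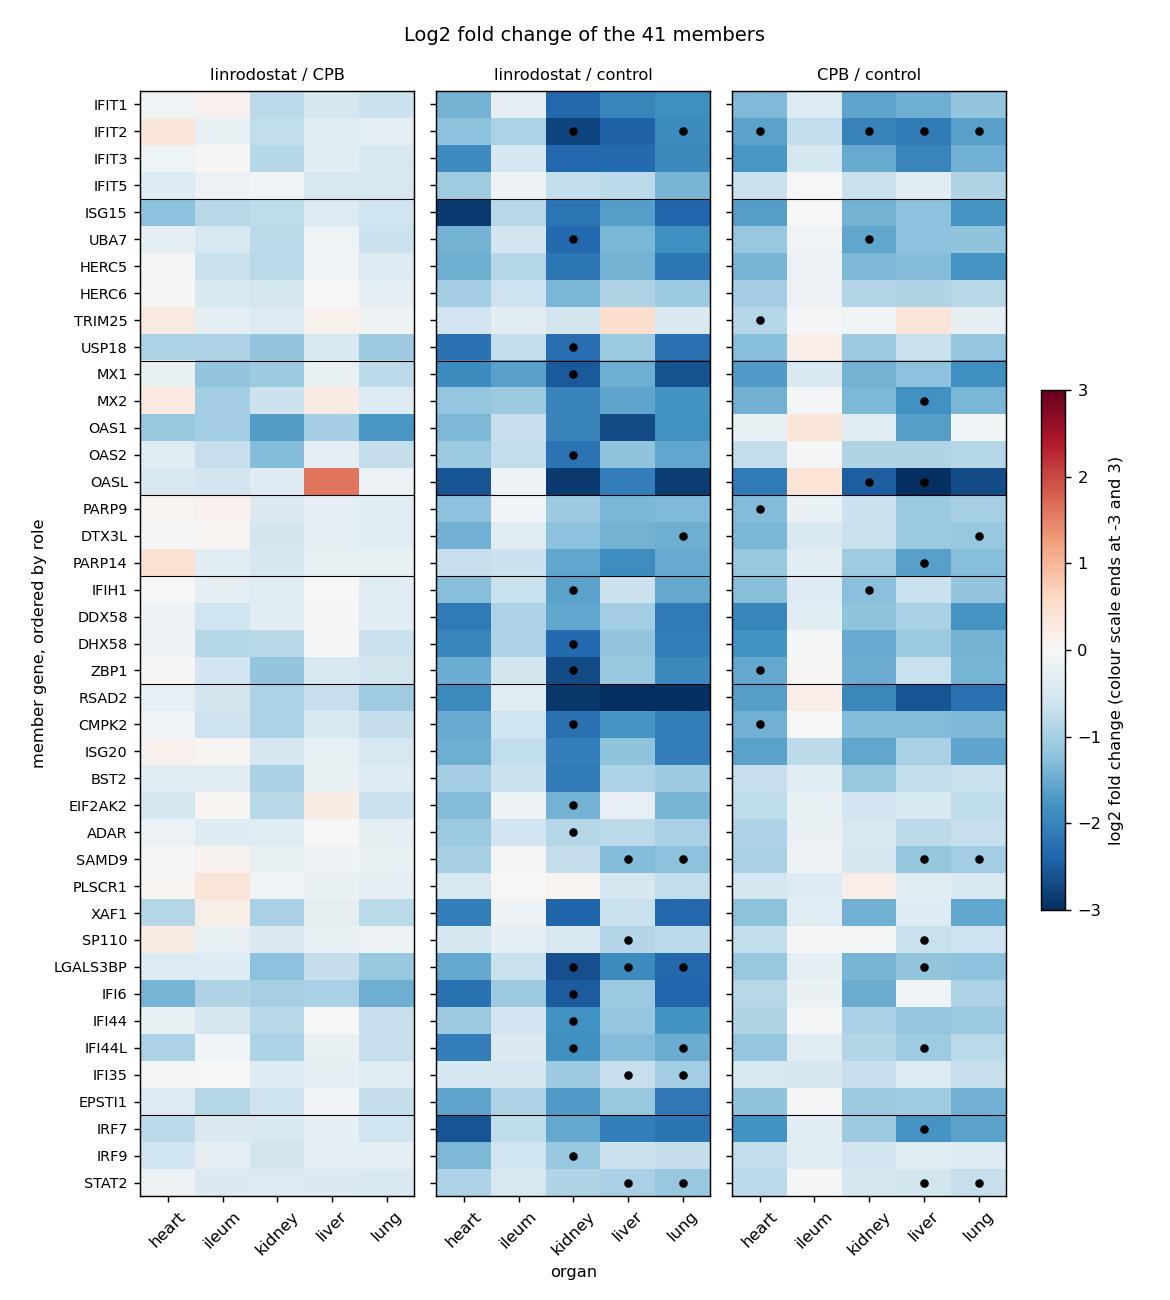
Log2 fold change of each member (rows, grouped by role) in each organ (columns) for linrodostat over CPB, linrodostat over control and CPB over control, with black dots where edgeR's adjusted p was under 0.05. The CPB over control panel holds 5, 0, 4, 10 and 4 dots in heart, ileum, kidney, liver and lung, and the linrodostat over CPB panel holds 0.

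The IFIT proteins bind foreign RNA and block translation. IFIT2 was the member called in the most organs, and the fold change of the family after CPB had a median of −1.46 in the heart, −0.47 in the ileum, −1.55 in the kidney, −1.73 in the liver and −1.32 in the lung on the log2 scale. In the lung, IFIT2 had a lowest, median and highest value of 48.1, 64.6 and 86.1 CPM in CPB pigs, against 81.5, 176 and 566 CPM in controls. All 7 CPB lungs were below the control median and 6 were below every control, and the log2 fold change was −1.63 ± 0.34 (SE, adjusted p = 0.0132).

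In the heart, IFIT2 had 10.6, 13.8 and 19.9 CPM (lowest, median, highest) in CPB pigs, against 14.3, 26.1 and 154 CPM in controls. The ranges overlapped, with 4 of 7 CPB hearts below every control, and IFIT2 fell by 1.60 ± 0.45 on the log2 scale (SE, edgeR adjusted p = 0.026). This call ended without CPB 2 or CPB 19 (largest adjusted p = 0.058), with limma-voom or no low-count filter, and without control 15 and CPB 2 together (0.0664). In the kidney, IFIT2 had 4.28, 18.3 and 20.6 CPM in CPB pigs, against 12.3, 24.8 and 327 CPM in controls. The highest control kidney, that of control 15, stood far above the rest, whose top was 40.6 CPM. The log2 fold change of −2.01 ± 0.67 (SE, edgeR adjusted p = 0.0395) was not called without control 15 or without any 1 of CPB 2, 6, 11, 19, 21 and 25 (largest adjusted p = 0.185), and was also lost with DESeq2, limma-voom, no low-count filter or sex as a covariate, or without control 15 and CPB 2 together (largest adjusted p = 0.279).

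In the liver, IFIT2 had 10.7, 23.7 and 52.9 CPM in CPB pigs, against 15.5, 39.8 and 474 CPM in controls. Only 1 CPB liver was below every control, and the log2 fold change of −2.11 ± 0.71 (SE, edgeR adjusted p = 0.0356) was not called without control 15, control 26 or any 1 of CPB 2, 6, 11, 19 and 21 (largest adjusted p = 0.14), nor with limma-voom, no low-count filter or sex as a covariate, or without control 15 and CPB 2 together (0.221). In the ileum, IFIT2 had 39.6, 66.2 and 99.3 CPM in CPB pigs, against 74.0, 125 and 140 CPM in controls, a log2 difference of −0.74 ± 0.20 that missed the threshold (edgeR adjusted p = 0.575). All 7 CPB ilea nevertheless lay below the control median. IFIT1, which recognises RNA caps lacking the host methyl mark, missed the threshold in all 5 organs, with log2 differences of −1.32 ± 0.52 in the heart (adjusted p = 0.107), −0.41 ± 0.28 in the ileum (1), −1.58 ± 0.65 in the kidney (0.0919), −1.47 ± 0.85 in the liver (0.211) and −1.19 ± 0.50 in the lung (0.169), each ± SE.

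**Figure D2:**
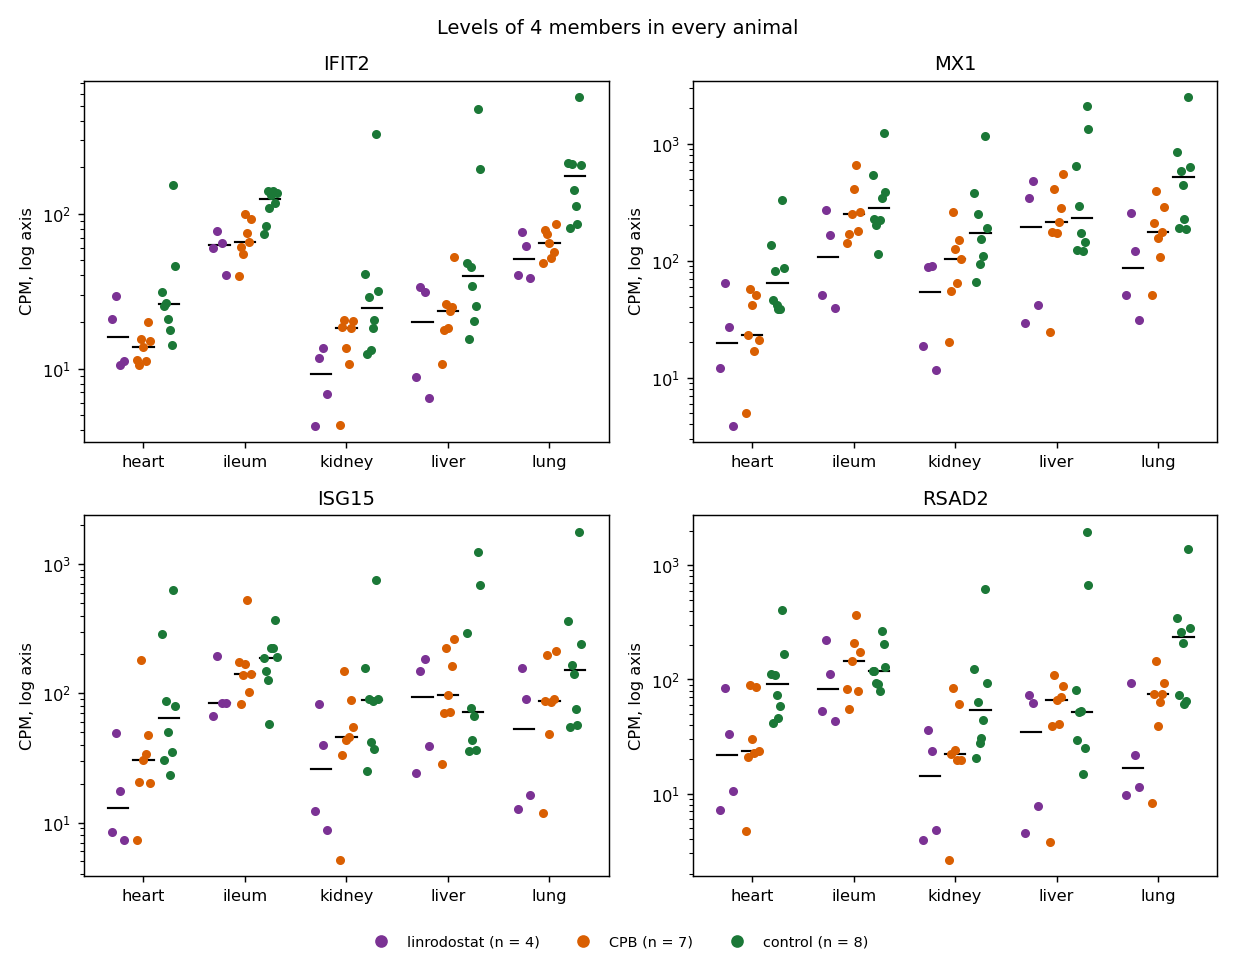
CPM on a log axis of IFIT2, MX1, ISG15 and RSAD2 in every animal, by organ and arm, with bars at the median. For IFIT2, 6 of the 7 CPB lungs sit below every control lung, while the groups overlap widely for ISG15.

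MX GTPases trap viral nucleocapsids, and OAS enzymes make the messenger that activates the RNA-degrading enzyme RNase L. In the liver MX2 had 8.22, 21.4 and 44.3 CPM (lowest, median, highest) in CPB pigs, against 25.5, 58.5 and 244 CPM in controls. Of the 7 CPB livers 5 were below every control, and MX2 fell by 1.82 ± 0.48 on the log2 scale (SE, edgeR adjusted p = 0.0103), a call kept under every alternative run, leaving out each animal in turn included.

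OASL was read at low levels outside the ileum. In the liver OASL had 0.217, 0.836 and 0.988 CPM in CPB pigs, against 0.804, 1.45 and 55.4 CPM in controls. The 55.4 CPM was control 15, and the other controls were at or below 4.85 CPM. The log2 fold change was −3.69 ± 0.95 (SE, edgeR adjusted p = 0.00911), kept without each animal but not with limma-voom (adjusted p = 0.136). Its size moved between −3.87 and −1.50 over the alternatives. In the kidney OASL had 0.564, 0.763 and 1.06 CPM in CPB pigs, against 0.397, 1.17 and 26.1 CPM in controls, where control 15 again held the top value and the others reached 2.77 CPM. All 7 CPB kidneys lay within the control range, and the log2 fold change of −2.47 ± 0.80 (SE, edgeR adjusted p = 0.0338) was not called without control 15 or any 1 of CPB 2, 19, 21 and 25 (largest adjusted p = 0.252). It was also lost with DESeq2, limma-voom, no low-count filter or sex as a covariate, or without control 15 and CPB 2 together (largest adjusted p = 0.307).

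MX1 missed the threshold in all 5 organs. In the heart MX1 had 4.96, 23.3 and 57.1 CPM in CPB pigs, against 38.4, 63.9 and 328 CPM in controls, with a log2 difference of −1.69 ± 0.63 (SE, edgeR adjusted p = 0.0848). In the lung MX1 had 50.5, 176 and 395 CPM in CPB pigs, against 187, 517 and 2481 CPM in controls, with −1.83 ± 0.61 (SE, edgeR adjusted p = 0.0855). In both organs all 7 CPB pigs were below the control median and 4 were below every control. The MX1 differences were −0.46 ± 0.51 in the ileum, −1.43 ± 0.65 in the kidney and −1.23 ± 0.77 in the liver, where the medians of 215 CPM in CPB pigs and 233 CPM in controls were close.

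ISG15 is a ubiquitin-like protein, UBA7 its activating enzyme, HERC5 and TRIM25 are ligases, and USP18 removes it and also damps the receptor. UBA7 fell in the kidney and TRIM25, which also activates the sensor RIG-I, fell in the heart. In the kidney UBA7 had 4.37, 19.1 and 42.6 CPM (lowest, median, highest) in CPB pigs, against 21.4, 34.2 and 238 CPM in controls, and 4 of 7 CPB kidneys were below every control. Its log2 fold change was −1.55 ± 0.53 (SE, edgeR adjusted p = 0.0435), not called without control 1, control 15 or any 1 of CPB 2, 6, 11, 19, 21 and 25 (largest adjusted p = 0.13). It was also lost with limma-voom, no low-count filter, only the 2 arms or sex as a covariate, or without control 15 and CPB 2 together (largest adjusted p = 0.168). In the heart TRIM25 had 9.07, 14.3 and 17.5 CPM in CPB pigs, against 10.3, 24.3 and 45 CPM in controls. Only 1 CPB heart was below every control, all 7 were below the control median, and the log2 fold change was −0.85 ± 0.24 (SE, edgeR adjusted p = 0.0265), not called without CPB 19 or control 15 (largest adjusted p = 0.0605), with limma-voom, or without control 15 and CPB 2 together (0.0933).

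ISG15 itself missed the threshold in all 5 organs, with wide ranges. In the lung ISG15 had 11.8, 86.8 and 211 CPM in CPB pigs, against 54.6, 153 and 1774 CPM in controls, a log2 difference of −1.78 ± 0.83 (SE, edgeR adjusted p = 0.215). In the liver ISG15 had 28.4, 96.5 and 264 CPM in CPB pigs, against 35.9, 72.1 and 1249 CPM in controls. The CPB median was the higher one there, although the fitted difference was −1.24 ± 0.80 (SE, adjusted p = 0.261), and the control with 1249 CPM was control 15. In the ileum the fitted difference was 0.00 ± 0.40, and in the heart and kidney it was −1.65 ± 0.82 and −1.41 ± 0.76 (adjusted p = 0.201 and 0.192).

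PARP9 and DTX3L form a complex that modifies histones and ubiquitin at sites of damage and raises interferon signalling, and PARP14 transfers ADP-ribose. In the heart PARP9 had 2.90, 6.67 and 13.7 CPM (lowest, median, highest) in CPB pigs, against 9.78, 14.5 and 51.1 CPM in controls. Of 7 CPB hearts 5 were below every control, with a log2 fold change of −1.31 ± 0.42 (SE, edgeR adjusted p = 0.0465). In the lung DTX3L had 11.2, 23.1 and 38.8 CPM in CPB pigs, against 26.5, 54.8 and 104 CPM in controls, with 4 of 7 below every control and −1.14 ± 0.29 (SE, edgeR adjusted p = 0.0324). PARP9 was not called in 10 of 15 fits that left out 1 animal, namely CPB 2, 6, 11, 19 and 25 and control 1, 7, 14, 15 and 26 (largest adjusted p = 0.101), and DTX3L in 8, namely CPB 2, 11, 19 and 21 and control 1, 7, 15 and 26 (0.0655). Both calls also ended with no low-count filter and without control 15 and CPB 2 together, and that of PARP9 with sex as a covariate (largest adjusted p = 0.172 for PARP9 and 0.082 for DTX3L).

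The sensors IFIH1 (MDA5), DDX58 (RIG-I) and DHX58 (LGP2) read viral RNA, and ZBP1 reads nucleic acid in the Z form. In the heart ZBP1 had 1.67, 10.5 and 18.4 CPM (lowest, median, highest) in CPB pigs, against 13.0, 22.9 and 81.1 CPM in controls. Of the 7 CPB hearts 5 were below every control, and the log2 fold change was −1.53 ± 0.49 (SE, edgeR adjusted p = 0.0489). In the kidney IFIH1 had 7.63, 15.4 and 41.7 CPM in CPB pigs, against 20.5, 34.9 and 150 CPM in controls, with 5 of 7 below every control and −1.25 ± 0.44 (SE, edgeR adjusted p = 0.0497). Both sat at the edge of the threshold: ZBP1 was called only in the fits without CPB 9, control 4 or control 13 and IFIH1 only in those without CPB 9, control 4, 10 or 13, of 15 fits each (largest adjusted p = 0.105 and 0.126). Both calls also ended with no low-count filter, with sex as a covariate and without control 15 and CPB 2 together, that of ZBP1 with relative log expression scaling, and that of IFIH1 with limma-voom or only the 2 arms (largest adjusted p = 0.139 for ZBP1 and 0.203 for IFIH1).

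Among the other antiviral effectors, the liver held most calls. SP110, a nuclear body protein, had 16.2, 20.0 and 29.4 CPM (lowest, median, highest) in CPB livers, against 24.0, 32.0 and 48.3 CPM in control livers. Of the 7 CPB livers 5 were below every control, and SP110 fell by 0.67 ± 0.16 on the log2 scale (SE, edgeR adjusted p = 0.00483). SAMD9, which restricts poxviruses, had 12.3, 25.9 and 38.3 CPM in CPB livers, against 33.8, 51.2 and 116 CPM in control livers, with 5 of 7 below every control and −1.16 ± 0.31 (SE, edgeR adjusted p = 0.0101). These 2 calls were kept under every alternative run.

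SAMD9 was also lower in the lung, with 91.5, 141 and 182 CPM (lowest, median, highest) in CPB pigs, against 171, 252 and 540 CPM in controls. Its log2 fold change there was −1.04 ± 0.26 (SE, edgeR adjusted p = 0.0311), not called without control 1, control 26 or any 1 of CPB 2, 11, 21 and 25 (largest adjusted p = 0.0611). LGALS3BP, a secreted galectin-binding glycoprotein, had 190, 252 and 399 CPM in CPB livers, against 187, 392 and 1527 CPM in control livers. No CPB liver was below every control, and its log2 fold change of −1.18 ± 0.39 (SE, edgeR adjusted p = 0.0334) was not called without control 1, 15 or 26 or any 1 of CPB 2, 6, 11, 19 and 25 (largest adjusted p = 0.0885). CMPK2, a mitochondrial nucleotide kinase next to RSAD2 on chromosome 3, had 4.82, 15.0 and 28 CPM in CPB hearts, against 20.3, 33.9 and 117 CPM in control hearts. Of the 7 CPB hearts 5 were below every control, with −1.44 ± 0.43 (SE, edgeR adjusted p = 0.037), not called without control 1, 7 or 15 or any 1 of CPB 2, 6, 11, 19 and 25 (largest adjusted p = 0.0799). All 3 of these calls also ended with no low-count filter and without control 15 and CPB 2 together, and that of LGALS3BP with limma-voom (largest adjusted p = 0.0859 for SAMD9, 0.146 for LGALS3BP and 0.119 for CMPK2).

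RSAD2 (viperin), which makes a chain-terminating nucleotide, missed the threshold in all 5 organs. In the liver RSAD2 had 3.80, 65.8 and 109 CPM (lowest, median, highest) in CPB pigs, against 15.0, 52.3 and 1958 CPM in controls. As for ISG15, the CPB median was the higher one although the fitted difference was −2.6 ± 1.07 (SE, edgeR adjusted p = 0.0778). In the lung RSAD2 had 8.22, 74.0 and 146 CPM in CPB pigs, against 60.7, 233 and 1396 CPM in controls, with −2.24 ± 0.75 (SE, edgeR adjusted p = 0.0887). The difference was −1.66 ± 0.66 in the heart, 0.21 ± 0.42 in the ileum and −1.94 ± 0.81 in the kidney. IFI35, which binds NMI and tunes innate signalling, was the 1 member whose ranges stood apart after CPB: ileal values were 25.8, 32.0 and 35.2 CPM in CPB pigs, against 36.4, 42.8 and 58.3 CPM in controls, yet the adjusted p was 0.589 for a log2 difference of −0.50 ± 0.14 (SE, edgeR).

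STAT2 and IRF9 carry the interferon signal to the nucleus, and IRF7 drives interferon gene transcription. In the lung STAT2 had 138, 168 and 196 CPM (lowest, median, highest) in CPB pigs, against 186, 231 and 508 CPM in controls, and 6 of 7 CPB lungs were below every control (fold 1.61 lower, edgeR adjusted p = 0.035). In the liver STAT2 had 159, 271 and 473 CPM in CPB pigs, against 339, 406 and 598 CPM in controls, with −0.56 ± 0.20 on the log2 scale (SE, edgeR adjusted p = 0.0412). The lung call ended without control 1, 7 or 26 or any 1 of CPB 2, 11, 19, 21 and 25 (largest adjusted p = 0.0735), and the liver call without control 1, 4, 15 or 26 or any 1 of CPB 2, 9, 11, 19 and 25 (0.0874). IRF7 had 12.3, 43.5 and 78.8 CPM in CPB livers, against 34.1, 70.9 and 572 CPM in control livers. Only 2 CPB livers were below every control, and its log2 fold change of −1.78 ± 0.60 (SE, edgeR adjusted p = 0.0356) was not called without control 15 or 26 or any 1 of CPB 2, 6, 11, 19, 21 and 25 (largest adjusted p = 0.117). All 3 calls also ended without control 15 and CPB 2 together, that of STAT2 in the lung with only the 2 arms, and that of IRF7 with limma-voom or no low-count filter (largest adjusted p = 0.0665 for STAT2 in the lung, 0.138 for STAT2 in the liver and 0.183 for IRF7).

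Pigs differed from each other in these genes more than in most genes. The SD of log2 CPM among the 8 controls had a median over members of 0.946 in the heart, 1.14 in the kidney, 1.16 in the liver and 0.916 in the lung, against medians over all tested genes of 0.338, 0.36, 0.358 and 0.329. In the ileum the members' median SD was 0.513 and that of all genes 0.541. For each animal the mean log2 CPM over the 41 members was taken relative to the control mean of the organ. It averaged −1.44 ± 0.95 in linrodostat pigs, −1.06 ± 0.85 in CPB pigs and 0 ± 0.915 in controls in the heart (SD, n = 4, 7 and 8). In the ileum the arms averaged −0.66 ± 0.65, −0.18 ± 0.41 and 0 ± 0.444 in the same order, so the CPB and control ilea differed by less than 1 SD.

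The kidney averages were −1.50 ± 0.72 in linrodostat pigs, −0.81 ± 0.85 in CPB pigs and 0 ± 1.04 in controls. In the liver they were −1.06 ± 1.01 in linrodostat pigs, −0.70 ± 0.72 in CPB pigs and 0 ± 1.12 in controls. In the lung they were −1.58 ± 0.68 in linrodostat pigs, −0.96 ± 0.63 in CPB pigs and 0 ± 0.896 in controls. As in the ileum, the CPB and control averages of kidney and liver differed by less than the SD of either arm. Those of heart and lung differed by more than it. The arms overlapped in all 5 organs.

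**Figure D3:**
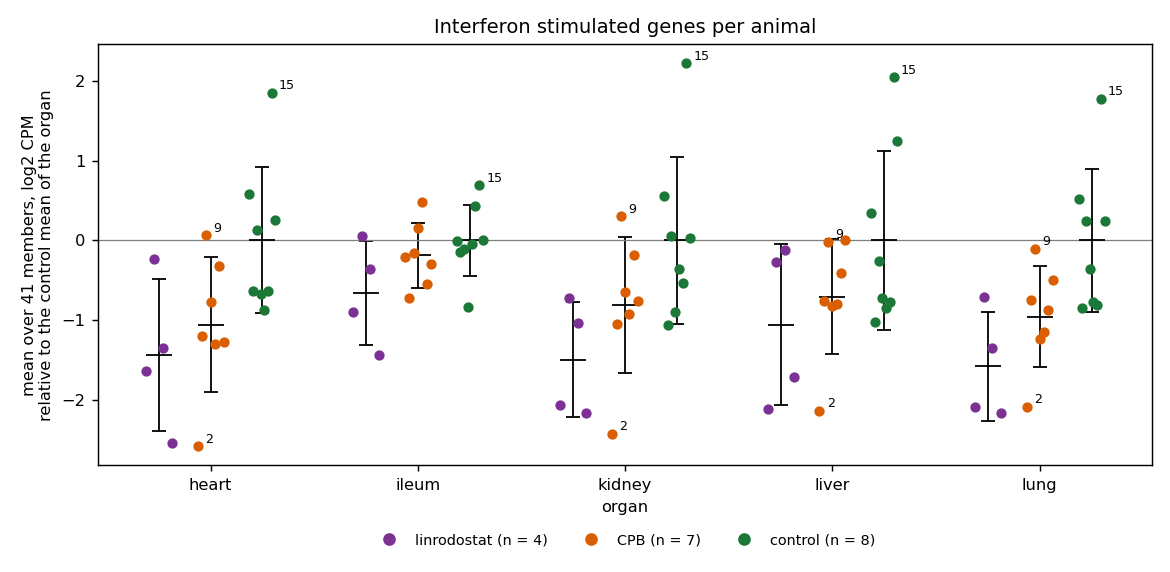
Mean log2 CPM over the 41 members in each animal, relative to the control mean of its organ, by organ and arm; bars are the mean and SD, and numbers mark control 15, CPB 2 and CPB 9. Control 15 is the top point in every organ, and CPB 2 is the lowest CPB point in every organ but the ileum.

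A pair of animals carried the extremes in several organs. Control 15 had member means of 1.85 in the heart, 0.69 in the ileum, 2.22 in the kidney, 2.05 in the liver and 1.78 in the lung. It was the highest of the 8 controls for 40 of 41 members in the heart, 22 in the ileum, 41 in the kidney, 40 in the liver and 41 in the lung, where it was the highest control for 14.3%, 9.93%, 22.4%, 15.1% and 21.3% of all tested genes. CPB 2 had member means of −2.58 in the heart, −0.20 in the ileum, −2.43 in the kidney, −2.14 in the liver and −2.09 in the lung. It was the lowest of the 7 CPB pigs for 36 of 41 members in the heart, 6 in the ileum, 38 in the kidney, 38 in the liver and 36 in the lung, against 15.3%, 20.8%, 18.5%, 16.3% and 16.6% of all tested genes.

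Averaged over heart, kidney, liver and lung, the member means of the linrodostat pigs were −0.49 (pig 18, female), −0.96 (20, female), −1.98 (12, male) and −2.15 (24, male). The CPB pigs spread between −2.31 in CPB 2 and 0.06 in CPB 9, with the others between −1.04 and −0.44. The controls spread between −0.89 in control 4 and 1.97 in control 15, with control 1 at 0.50 and control 26 at 0.44. Controls 4, 10, 13 and 14, at −0.89 to −0.66, thus lay among the CPB pigs. In the ileum the order changed: CPB 19 was the highest CPB pig there at 0.48, and stood at −1.04 over the other 4 organs.

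**Figure D4:**
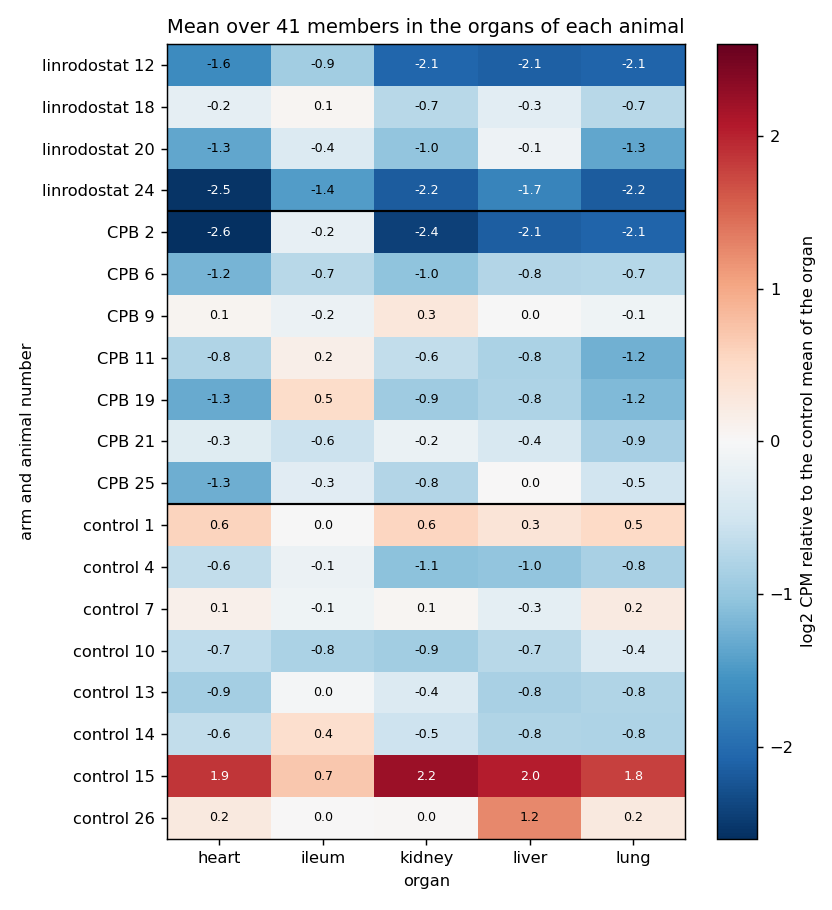
Mean log2 CPM over the 41 members relative to the organ's control mean, for each animal (rows, by arm) in each organ (columns). Control 15 is high in all 5 organs, and CPB 2, linrodostat 12 and linrodostat 24 are low in heart, kidney, liver and lung.

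The results depended on these animals. With all animals in, 11.9%, 0%, 21.1%, 26.9% and 4.71% of all tested genes were called after CPB, lower or higher (heart, ileum, kidney, liver, lung). Without control 15, 1 member fell after CPB in the heart (IFIT2), 0 in the ileum, 0 in the kidney, 4 in the liver (MX2, OASL, SAMD9, SP110) and 3 in the lung (IFIT2, SAMD9, STAT2), and the median log2 fold changes were −0.73, −0.04, −0.43, −0.55 and −0.74 in that organ order. Of all tested genes, 9.57%, 0%, 20.1%, 23.8% and 3.85% were then called, lower or higher. Without CPB 2, 1 fell in the heart (TRIM25), 0 in the ileum, 0 in the kidney, the same 4 in the liver and 1 in the lung (IFIT2), with medians of −1.03, −0.18, −0.97, −0.94 and −1.06. The share of all tested genes called, lower or higher, was then 8.46%, 0%, 16.7%, 20.2% and 2.76%. Without CPB 9, the CPB pig with the highest member mean in heart, kidney and lung, 16, 0, 8, 10 and 12 members fell. The share of all tested genes called there, lower or higher, was 16.4%, 0%, 20.1%, 29.8% and 5.94%. With control 15 and CPB 2 both left out, 0, 0, 0, 4 and 1 fell and PLSCR1 rose in the kidney, and the medians of −0.59, −0.06, −0.32, −0.42 and −0.59 kept their sign. All tested genes called, lower or higher, then made up 6.15%, 0%, 16.8%, 16.6% and 2.53%.

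Other animals moved the counts too. By the number of members called, the heart count of 5 became 0 without CPB 19, 2 without CPB 6, CPB 11, CPB 25, control 1 or control 7, and 3 without control 26. The kidney count of 4 became 0 without CPB 19, 21 or 25, 1 without CPB 6 or 11, and 2 without control 1. The liver count of 10 became 4 without CPB 11, CPB 19 or control 26, 5 without CPB 6, and 6 without CPB 25 or control 1. The lung count of 4 became 1 without CPB 11, CPB 21, control 1 or control 26, 2 without CPB 19, CPB 25 or control 7, 7 without control 14 and 10 without control 13. The share of all tested genes called in these fits is not given here. From the member counts alone, a shift of the members can therefore not be told apart from a shift of all genes.

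**Figure D5:**
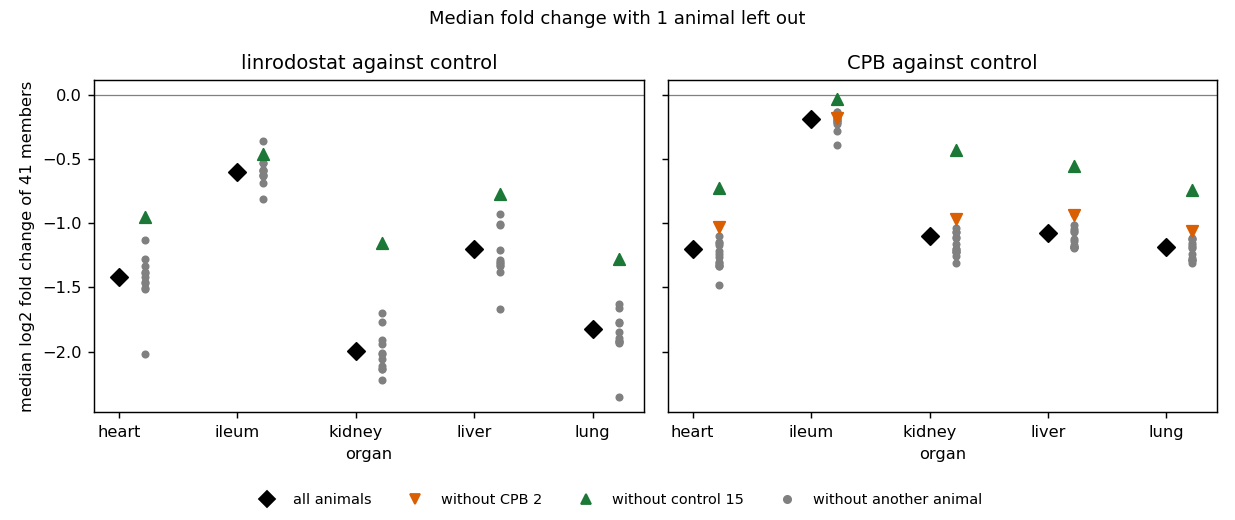
Median log2 fold change of the 41 members for linrodostat over control and CPB over control with all animals (diamonds) and with 1 animal left out (points), by organ. Leaving out control 15 brings the CPB over control medians nearest to 0 in every organ (−0.73, −0.04, −0.43, −0.55 and −0.74), and no median crosses 0.

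Markers of other cells differed between these samples. Of 11 monocyte and macrophage markers 10 were in the table, and after CPB 5 fell in the kidney, 5 in the liver and 6 in the lung, while 2 rose in the heart and 0 moved in the ileum, against 9.86%, 11.3% and 2.62% of all tested genes lower in kidney, liver and lung and 6.39% higher in the heart. SIGLEC1, a macrophage receptor that is itself interferon responsive, fell by 2.76 on the log2 scale in the kidney (edgeR adjusted p = 0.0104), where control 15 had 110 CPM and the other controls 3.26 to 36.1 CPM. Without control 15 it fell by 1.7 on the log2 scale there (adjusted p = 0.0194), and it was not called with limma-voom (adjusted p = 0.104). SIGLEC1 ran between 11.0 and 39.0 CPM in CPB livers, against 38.1 to 79.0 CPM in control livers. In the lung it ran between 52.8 and 169 CPM, against 150 to 459 CPM. The heart had 0.354 to 6.06 CPM against 1.40 to 29.0 CPM, and the ileum 1.52 to 26.2 CPM against 2.55 to 72.7 CPM. The summed macrophage level in the lung was 3268 to 6169 CPM in linrodostat pigs, 3162 to 6379 CPM in CPB pigs and 6063 to 10554 CPM in controls. In the kidney it was 141 to 327 CPM, 203 to 414 CPM and 222 to 1719 CPM, in the liver 1170 to 1337 CPM, 1285 to 1596 CPM and 1239 to 2456 CPM, in the heart 235 to 746 CPM, 218 to 630 CPM and 202 to 642 CPM, and in the ileum 807 to 1152 CPM, 988 to 1572 CPM and 615 to 1601 CPM, for linrodostat, CPB and control pigs in that order.

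T and NK cell markers, 9 of 10 symbols in the table, fell for 4 of 10 rows in the liver and 0 in the other organs. B cell markers, 5 of 6 in the table, fell for 5 in the liver, 2 in the lung and 1 in the kidney, and plasmacytoid dendritic cell markers, 3 of 5, for 1 in the heart and 2 in the liver. Neutrophil markers, 4 of 6, rose for 1 in the kidney, 3 in the liver and 2 in the lung. Of all tested genes, 11.9%, 0%, 21.1%, 26.9% and 4.71% were called in heart, ileum, kidney, liver and lung, lower or higher. A single call from so few markers cannot be weighed against that share. No marker of these 5 lists was at 0 in all libraries of an arm. Control 15 had the highest summed T and NK level of the controls in all 5 organs, 460 CPM in the kidney against 29.4 to 129 CPM in the other controls, and 1302 CPM in the lung against 327 to 1014 CPM. Its macrophage sum was the highest control value in the heart, ileum and kidney (1719 CPM in the kidney, against 222 to 615 CPM). CPB 2 had the lowest T and NK sum of the CPB pigs in the heart, kidney and lung. The part of these cells in the levels of the members was not tested.

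Linrodostat pigs were set against CPB pigs to ask whether the drug changed these genes after the same operation. None of the 41 members passed in any organ: edgeR, DESeq2 and limma-voom each called 0 in all 5 organs, where edgeR called 0%, 0%, 0%, 0.013% and 0% of all tested genes lower in heart, ileum, kidney, liver and lung. Counts at an unadjusted p under 0.05 were 0, 2, 0, 1 and 2 by edgeR (6.05%, 9.18%, 4.66%, 8.42% and 2.59% of all genes), 0, 2, 3, 2 and 5 by DESeq2 and 0, 5, 1, 1 and 1 by limma-voom. The median log2 difference of the members was −0.16 in the heart, −0.38 in the ileum, −0.75 in the kidney, −0.24 in the liver and −0.48 in the lung, with 30, 32, 41, 34 and 41 members below 0 (51%, 44%, 50.3%, 51.4% and 52.7% of all genes). These medians moved with single animals: the heart median was −0.79 without linrodostat 18, 0.03 without CPB 9 and 0.12 without linrodostat 24 (15 to 38 members below 0 over the 11 fits), so its sign rested on them. The liver median lay between −0.53 without linrodostat 20 and −0.0035 without linrodostat 12 (21 to 38 below 0), the ileum median between −0.51 without linrodostat 18 and −0.23 without linrodostat 24, the kidney median between −0.98 without linrodostat 18 and −0.45 without CPB 9, and the lung median between −0.94 without linrodostat 18 and −0.27 without linrodostat 24.

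No member had linrodostat values wholly below CPB values, where 0.201%, 0.728%, 0.153%, 0.351% and 0.146% of all genes did. In the liver OASL had linrodostat values wholly above the CPB values, as 1.51% of all tested genes there did: 1.04, 3.36, 1.52 and 2.37 CPM in linrodostat pigs 12, 18, 20 and 24, against 0.217, 0.836 and 0.988 CPM (lowest, median, highest) in CPB pigs. Its log2 difference of 1.61 ± 1.03 was not called (SE, edgeR adjusted p = 0.735). With 4 drug-treated pigs, SEs of single genes were wide, and no member can be said to be alike between these arms.

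In the ileum STAT2 had 184, 174, 235 and 202 CPM in linrodostat pigs 12, 18, 20 and 24, against 225, 275 and 315 CPM (lowest, median, highest) in CPB pigs. Of the 4 linrodostat ilea 3 were below every CPB ileum, and the difference of −0.44 ± 0.14 on the log2 scale had the smallest p of the members there (edgeR adjusted p = 0.423). In the liver IFI6, a mitochondrial and endoplasmic reticulum protein that limits flaviviruses, had 349, 493, 706 and 399 CPM in linrodostat pigs, against 435, 1062 and 1335 CPM in CPB pigs, a difference of −0.97 ± 0.41 (SE, edgeR adjusted p = 0.499). In the lung IFI6 had 159, 209, 225 and 97.9 CPM in linrodostat pigs, against 114, 342 and 1226 CPM in CPB pigs, with −1.46 ± 0.69 (SE, edgeR adjusted p = 1). The ranges overlapped for IFI6 in both organs. In the heart IFI6 also had the smallest p (−1.41 ± 0.77, SE, edgeR adjusted p = 0.866), and in the kidney EIF2AK2, the kinase PKR, did (−0.83 ± 0.41, SE, edgeR adjusted p = 0.998).

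The 5 genes given for every organ showed the same mix. IFIT2 was 0.37 ± 0.52 higher in linrodostat hearts than in CPB hearts on the log2 scale, and −0.20 ± 0.24, −0.75 ± 0.80, −0.31 ± 0.83 and −0.27 ± 0.41 in ileum, kidney, liver and lung (SE). MX1 differed by −0.19 ± 0.74 in the heart, −1.18 ± 0.64 in the ileum, −1.09 ± 0.80 in the kidney, −0.22 ± 0.91 in the liver and −0.78 ± 0.72 in the lung. ISG15 differed by −1.23 ± 1.01, −0.83 ± 0.50, −0.75 ± 0.92, −0.41 ± 0.96 and −0.60 ± 0.98 and RSAD2 by −0.24 ± 0.78, −0.56 ± 0.51, −0.96 ± 0.97, −0.69 ± 1.23 and −1.06 ± 0.89 in the same organ order. IFIT1 differed by −0.10 ± 0.62, 0.12 ± 0.34, −0.78 ± 0.79, −0.52 ± 1.02 and −0.66 ± 0.61. Linrodostat pigs 12 and 24 were low and pigs 18 and 20 higher for many members, as for MX1 in the liver with 29.5, 343, 479 and 42.0 CPM in pigs 12, 18, 20 and 24. Pigs 12 and 24 were male and pigs 18 and 20 female, so sex and single animals cannot be told apart in this split.

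Linrodostat pigs were also set against the controls, which are the same 8 animals as in the CPB comparison, so the 2 comparisons are not independent. By edgeR's test 0 members fell in the heart, 0 in the ileum, 16 in the kidney, 5 in the liver and 7 in the lung, and 0 rose, where 0.96%, 0.0616%, 8.27%, 8.88% and 1.28% of all tested genes were called lower and 1.08%, 0.151%, 11.7%, 12.9% and 1.06% higher. Counts at an unadjusted p under 0.05 were 29 in the heart and 11 in the ileum (15.8% and 13.8% of all genes). There DESeq2 called 7 and 2 (4.65% and 4.66% of all genes) and limma-voom 0 and 0 (1.62% and 0.185%). The median log2 fold changes of the members were −1.42, −0.60, −2.0, −1.20 and −1.83 in heart, ileum, kidney, liver and lung (without control 15, −0.95, −0.46, −1.16, −0.77 and −1.28; the ileum median was −0.36 without linrodostat 24), with 41, 40, 40, 40 and 41 members below 0 (50.8%, 47.7%, 53.6%, 49.8% and 48.7% of all tested genes). The linrodostat range lay wholly below the control range for 0, 1, 4, 2 and 7 members, against 2.06%, 1.17%, 3.78%, 4.92% and 2.11% of all tested genes. The ileum and liver numbers of separated members were near that background.

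In the kidney the members called lower were LGALS3BP, IFI44L, EIF2AK2, UBA7, ZBP1, IRF9, USP18, IFIT2, DHX58, IFI6, ADAR, CMPK2, MX1, OAS2, IFI44 and IFIH1. LGALS3BP had 52.2, 73.9, 56.4 and 31.8 CPM in linrodostat kidneys 12, 18, 20 and 24, against 82.0, 220 and 1088 CPM (lowest, median, highest) in control kidneys. The groups did not overlap, and LGALS3BP fell by 2.63 ± 0.66 on the log2 scale (SE, edgeR adjusted p = 0.00912), kept under every alternative run. EIF2AK2, which halts translation on sensing double-stranded RNA, had 20.4, 38.5, 42.6 and 22.9 CPM in linrodostat kidneys, against 47.1, 66.7 and 146 CPM in control kidneys, also without overlap (−1.42 ± 0.42, SE, edgeR adjusted p = 0.0222).

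UBA7 had 7.58, 17.6, 15.7 and 9.5 CPM in linrodostat kidneys, against 21.4, 34.2 and 238 CPM in control kidneys (−2.33 ± 0.68, SE, edgeR adjusted p = 0.0226). ZBP1 had 3.20, 11.7, 10.3 and 5.16 CPM in linrodostat kidneys, against 15.2, 30.3 and 173 CPM in control kidneys (−2.67 ± 0.80, SE, edgeR adjusted p = 0.0252). Both were without overlap. IFI44L, IRF9, USP18 and IFIT2 overlapped between groups and fell by 1.84, 1.13, 2.28 and 2.76 on the log2 scale (adjusted p = 0.0134, 0.026, 0.0264 and 0.0328). With no low-count filter EIF2AK2, UBA7, ZBP1, IRF9, USP18 and IFIT2 were not called, nor were UBA7, ZBP1, USP18 and IFIT2 with limma-voom and IFIT2 with only the 2 arms (largest adjusted p = 0.121, for IFIT2). Without linrodostat 12, LGALS3BP was the 1 member called in the kidney (12.7% of all tested genes called), and without linrodostat 24 IFI44L and LGALS3BP were the 2 called (19.8%). The count was 7 without linrodostat 18, 8 without control 1 or 15, 9 without control 7 or linrodostat 20, 10 without control 26, 25 without control 10 and 31 without control 4. Without control 15, 20.9% of all tested genes were called. For the other animals of this series the share is not given here. Those member counts alone cannot show whether all genes shifted too.

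In the liver SP110 had 15.4, 21.6, 20.5 and 17 CPM in linrodostat pigs 12, 18, 20 and 24, against 24.0, 32.0 and 48.3 CPM (lowest, median, highest) in controls, with no overlap (−0.87 ± 0.19, SE, edgeR adjusted p = 0.0046). STAT2 had 180, 275, 231 and 177 CPM in linrodostat livers, against 339, 406 and 598 CPM in control livers, again with no overlap (−0.98 ± 0.24, SE, edgeR adjusted p = 0.00834). These 2 calls held under every alternative run. LGALS3BP (−1.90 ± 0.50, adjusted p = 0.0125), SAMD9 (−1.31 ± 0.38, 0.0197) and IFI35 (adjusted p = 0.037) also fell in the liver, with overlap. LGALS3BP was not called without linrodostat 24, SAMD9 without linrodostat 12 or 24, and IFI35 without any linrodostat pig or control 1, 13, 15 or 26, with limma-voom or with only the 2 arms. The count of 5 became 2 without linrodostat 24 (11.9% of all tested genes called) and 10 without control 4, and without linrodostat 12 TRIM25 was called higher (15.5% called). The share without control 4 is not given here.

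In the lung STAT2 had 109, 154, 113 and 107 CPM in linrodostat pigs 12, 18, 20 and 24, against 186, 231 and 508 CPM (lowest, median, highest) in controls. The groups did not overlap, and STAT2 fell by 1.14 ± 0.22 on the log2 scale (SE, edgeR adjusted p = 0.0113), not called without linrodostat 24 (adjusted p = 0.06). IFIT2 had 40.1, 76.7, 61.7 and 38.6 CPM in linrodostat lungs, against 81.5, 176 and 566 CPM in control lungs, without overlap (−1.90 ± 0.43, SE, edgeR adjusted p = 0.0265). IFI35 had 27.6, 30.9, 28.9 and 21.3 CPM in linrodostat lungs, against 39.1, 48.7 and 114 CPM in control lungs, without overlap (−1.03 ± 0.27, SE, edgeR adjusted p = 0.0457). LGALS3BP, DTX3L, IFI44L and SAMD9 fell by 2.35, 1.47, 1.49 and 1.23 (adjusted p = 0.0457, 0.0378, 0.0333 and 0.0492). With no low-count filter STAT2 was the 1 member still called, and with only the 2 arms IFIT2, IFI35 and SAMD9 were not called. SAMD9 was also lost without control 15 and CPB 2 together, and LGALS3BP with sex as a covariate. The lung count of 7 became 0 without linrodostat 24, 1 without linrodostat 12 or 20, 2 without control 1 or 26, 3 without control 7 or 10, 4 without control 15, 12 without control 4, 16 without control 13 or 14 and 17 without linrodostat 18. Of all tested lung genes, 0.475% were called without linrodostat 24, 0.911% without linrodostat 12 and 2.08% without control 15, against 2.35% with all animals. For the other animals left out this share is not given here.

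In the heart IRF9 had 31.0, 52.6, 30.3 and 20.3 CPM in linrodostat pigs, against 49.3, 67.1 and 163 CPM in controls, a difference of −1.35 ± 0.39 that missed the threshold (SE, edgeR adjusted p = 0.0775). In the ileum IFIT2 had 60.5, 77.5, 64.4 and 40.5 CPM in linrodostat pigs, against 74.0, 125 and 140 CPM in controls, which also missed it (−0.94 ± 0.25, SE, edgeR adjusted p = 0.0775). STAT2 was the 1 member without overlap in the ileum, at 174 to 235 CPM in linrodostat pigs and 239 to 339 CPM in controls (−0.49 ± 0.14, SE, edgeR adjusted p = 0.104). MX1 was called in the kidney alone, where it had 18.5, 89.1, 90.6 and 11.7 CPM in linrodostat pigs, against 65.7, 171 and 1162 CPM in controls (−2.52 ± 0.85, SE, edgeR adjusted p = 0.0447), and ISG15, IFIT1 and RSAD2 passed in no organ.

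Whether the CPB difference from control itself varied between organs was tested with 1 model over all 95 libraries. TRIM25 was the 1 member called (edgeR F test with 4 degrees of freedom, adjusted p = 0.0263), where 12.9% of all tested genes were called, and 3 members had an unadjusted p under 0.05. The log2 fold changes of TRIM25 (CPB over control) were −0.85 ± 0.24 in the heart, −0.05 ± 0.19 in the ileum, −0.14 ± 0.17 in the kidney, 0.38 ± 0.22 in the liver and −0.28 ± 0.12 in the lung (SE). Because the organs came from the same pigs, the model was also fitted with the animal as a block. With the block as a fixed term, 6 members were called, MX2, SAMD9, TRIM25, DHX58, SP110 and UBA7 (adjusted p = 0.00382, 0.00922, 0.0107, 0.0131, 0.0134 and 0.0496), where 15.6% of all tested genes were called, so 6 of 41 was near its background and is no result about the members. With the animal as a random effect 0 members were called (smallest adjusted p = 0.0768).

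The values of these genes by organ (CPB over control, log2 scale) were as follows. MX2 differed by −1.43 in the heart, −0.07 in the ileum, −1.35 in the kidney, −1.82 in the liver and −1.38 in the lung, and SAMD9 by −0.97, −0.16, −0.49, −1.16 and −1.04 on the log2 scale. SP110 differed by −0.74, −0.03, −0.06, −0.67 and −0.62 in the same order, near 0 in the ileum and kidney. DHX58 differed by −1.79, −0.05, −1.50, −1.12 and −1.42, and UBA7 by −1.14, −0.10, −1.55, −1.24 and −1.20. Without CPB 19, CPB 25, control 1 or control 26 the model without a block called 0 members, and without control 14 it called 2. Without the heart libraries, which carry the other batch label, it called 1 (smallest adjusted p = 0.0412), where 10% of all tested genes were called.

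The upstream pathway was read from lists of its other genes, with the same edgeR threshold. Among the 8 genes of the receptors (IFNAR1, IFNAR2, IFNGR1, IFNGR2), their kinases (JAK1, JAK2, TYK2) and STAT3, after CPB STAT3 rose in the heart by 0.66, TYK2 fell by 0.53 in the kidney and 0.74 in the liver, JAK1 rose by 0.75 in the liver and IFNGR2 rose by 0.58 in the kidney, all on the log2 scale. None of these 8 passed in the ileum or lung. The call of IFNGR2 ended without any 1 of control 1, 4, 7, 10, 13 and 26 and CPB 11, 19 and 21, and that of JAK1 without control 15 and CPB 2 together (largest adjusted p = 0.119 and 0.0624). With 9.86% to 11.3% of all tested genes called in each direction in the kidney and 11.3% to 15.6% in the liver, 1 call among 8 genes was near the background there.

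Of 14 genes that induce interferon, 13 were tested, and 2 fell in the heart, 0 in the ileum, 3 in the kidney, 7 in the liver and 5 in the lung (5.53%, 0%, 9.86%, 11.3% and 2.62% of all tested genes were called lower), while 1 rose in the kidney (TICAM1, by 0.75) and 1 in the liver (TBK1, by 0.58). TLR8, an endosomal receptor for RNA, averaged 21.0 ± 8.09 CPM in CPB lungs and 60.5 ± 10.8 CPM in control lungs (SD), and fell by 1.52 there, 1.12 in the liver and 1.55 in the kidney on the log2 scale. In the kidney TLR8 was −0.87 and not called without control 15, nor without CPB 2, without both or with limma-voom (largest adjusted p = 0.111). IRF3, the factor that starts interferon transcription, fell by 0.91 in the liver, and STING1, the adaptor for cytosolic DNA, by 0.60 in the lung, and both calls were kept under every alternative. Of 8 negative regulators, PTPN6, a phosphatase of blood cells, fell by 0.84 in the kidney, 1.07 in the liver and 1.01 in the lung, SOCS1 fell by 1.02 and OTUB1 rose by 0.38 in the heart, PTPN2 rose by 0.43 in the kidney, PTPN11 rose by 0.37 in the liver and PIAS1 fell by 0.37 in the lung. The calls of PTPN6 and OTUB1 were kept under every alternative, and those of SOCS1, PTPN2, PTPN11 and PIAS1 each ended without at least 3 single animals (largest adjusted p = 0.118, 0.0843, 0.128 and 0.0827). Of all tested genes, 11.9%, 21.1%, 26.9% and 4.71% were called in heart, kidney, liver and lung, lower or higher. Single calls among 8 genes cannot be weighed against those shares.

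Of 14 genes used as interferon gamma targets, IRF1 fell by 1.18 in the heart and 1.23 in the liver, CIITA by 0.85 in the kidney and 0.78 in the liver, and CXCL10 by 2.22 and TAP1 by 0.97 in the liver, with 0 called in the ileum and lung. Of all tested genes, 11.9%, 21.1% and 26.9% were called in heart, kidney and liver, lower or higher. A single call in an organ cannot be weighed against that share. Without control 15 CXCL10 was −1.37 in the liver and not called, and IRF1 in the heart and TAP1 were not called either (largest adjusted p over all alternatives = 0.13, 0.14 and 0.176). The liver call of IRF1 and both calls of CIITA were kept under every alternative. Several of these genes answer type I interferon too. Among the interferon genes themselves, IFNA1 and IFNK were at most 0.0589 and 0.026 CPM in any library. IFNB1 had no counts in any of the 19 heart or the 19 kidney libraries, which allows up to 0.15 CPM in the shallowest heart library and 0.117 CPM in the shallowest kidney library (3 counts, counting error only). In the lung IFNB1 was at most 0.136 CPM in linrodostat pigs, 0.166 CPM in CPB pigs and 0.984 CPM in controls, with 4 of 7 CPB and 4 of 8 control libraries at 0. IFNE, a type I interferon known from epithelia, was read in every ileal library, at 2.85 ± 2.33 CPM in linrodostat pigs, 1.18 ± 0.663 CPM in CPB pigs and 1.62 ± 1.31 CPM in controls (SD, n = 4, 7 and 8), with overlapping ranges and a top value of 5.87 CPM. IFNE was also above 0 in every kidney and lung library, at up to 0.736 and 1.56 CPM. IFNG, the type II interferon, was likewise read in every ileal library, at 4.57 ± 2.87 CPM in linrodostat pigs, 2.93 ± 1.63 CPM in CPB pigs and 2.85 ± 1.32 CPM in controls, where the ranges overlapped too.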

How the data were processed

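The table that the authors deposited holds expected counts per gene and library, not normalized, of which 92.7% to 96.6% were whole numbers. Their processing used STAR and Salmon with the build Sscrofa11.1, after bcl2fastq, cutadapt and Trim Galore, with MultiQC, per the submitters' processing notes; which of these made the counts is not given in the sources used here. Libraries were poly(A) selected, with paired 150-base reads, per the labels' protocols. All 95 libraries of 19 animals, with totals of 19956859 to 53627723 counts, entered. At the shallowest depths 3 counts equal 0.0998 to 0.15 CPM.

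Expected counts were rounded and fitted per organ over its 19 libraries with edgeR 4.0.16 (filter by expression within arms, TMM scaling, robust quasi-likelihood F test) in R 4.3.3, with Benjamini-Hochberg adjustment over all genes of the organ and a threshold of 0.05. CPM used the normalized library sizes, and log2 CPM a prior count of 2. The SE beside an edgeR log2 fold change is an approximation: its absolute value divided by the square root of the F statistic. The organ difference used 1 model over 95 libraries. Groups came from the sample titles, and animals are the replicates. Alternatives were DESeq2 1.42.0, limma-voom (limma 3.58.1), only the 2 arms compared, sex added as covariate, relative log expression scaling, fitting without the filter on low counts, each animal left out and, since earlier results of these data named them as extreme, control 15 and CPB 2 left out together. The scripts were tested on simulated data.

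The members and lists were chosen with earlier results of these data known. Named genes were the passing members by p, up to 8 a comparison, the 2 with the smallest p where none passed, 5 genes in every organ (MX1, ISG15, IFIT1, IFIT2, RSAD2), and up to 3 passing genes of each other list. The 5 organs share animals: the median correlation of same-animal deviations was 0.134 to 0.3 over 10 organ pairs (13637 genes). The arms hold different animals and are not paired. No pair of libraries within a group held identical values. One gene of the pathway lists is not reported here.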

Additional observations from a re-analysis of the deposited data

Results flagged for a closer look

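Single animals stood apart from the rest of their arm in 15 of 172 groups of values tested by the gap to the nearest other animal, and 1 further result differed between organs. Chance gives about 5% for independent groups. The same pigs recur here over genes and organs, so the count cannot be weighed against that share. In the ileum CPB 19 had 529 CPM of ISG15, against 82.6 to 176 CPM in the other CPB pigs, and 168 CPM of USP18, against 49.8 to 77.2 CPM.

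CPB 2 was low in the kidney for IFIT2 at 4.28 CPM (others 10.8 to 20.6), for RSAD2 at 2.63 CPM (19.6 to 83.6) and for UBA7 at 4.37 CPM (17.8 to 42.6). In the liver CPB 2 had 24.5 CPM of MX1 (others 171 to 545), 3.80 CPM of RSAD2 (39.2 to 109) and a member mean of −2.14 on the log2 scale (others −0.82 to 0.01).

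Control 15 was high in the kidney for IFIT1 at 539 CPM (other controls 27.2 to 107), for IFIT2 at 327 CPM (12.3 to 40.6) and for OASL at 26.1 CPM (0.397 to 2.77). It was also high for OASL in the liver at 55.4 CPM (0.804 to 4.85) and for IFI35 in the lung at 114 CPM (39.1 to 58.6). In the lung linrodostat 18 had 154 CPM of STAT2 (other linrodostat pigs 107 to 113) and 31.9 CPM of DTX3L (15.1 to 16.5). Results with and without control 15 and CPB 2 stand beside the counts they change.

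TRIM25 was the member whose CPB difference from control varied between organs in the model without an animal block (edgeR adjusted p = 0.0263). That model called 12.9% of all tested genes. TRIM25 was also called with the animal as a fixed term, but not with the animal as a random effect. Without CPB 19, CPB 25, control 1 or control 26 the model without a block called 0 members.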

How the results depend on the processing

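No named call reversed its direction under any alternative, and 7 of 41 named calls held under all of them. Of 319 recounts of members called, 224 stayed within 1.5 times the count reported and 95 did not. Many that stayed belong to comparisons with a count of 0. Those moved only with DESeq2, for linrodostat against control in heart and ileum. Counts above 0 moved more often. With 1 animal left out, CPB against control moved in 10, 9, 8 and 11 of 15 fits (heart, kidney, liver, lung). Linrodostat against control moved in 10, 2 and 12 of 12 fits (kidney, liver, lung), and the organ difference in 5 of 19. In brackets below is the share of all tested genes called, lower or higher, which moved with the setting too. It is not given for the ranges with 1 animal left out. CPB against control: the heart count of 5 (11.9%) was 15 with DESeq2 (16.5%), 1 with no low-count filter (5.03%) and 3 with sex as a covariate (10.9%). It was 0 without control 15 and CPB 2 (6.15%), and 0 to 16 with 1 animal left out. The kidney count of 4 (21.1%) was 0 with limma-voom (19.7%), with no filter (10.5%) and with sex (21.1%). It was 2 with only the 2 arms (21.6%), 1 without both animals (PLSCR1, higher, 16.8%), and 0 to 8 with 1 left out. The liver count of 10 (26.9%) was 4 with limma-voom (26.4%), 5 with no filter (12.3%), 4 without both (16.6%), and 4 to 11 with 1 left out. The lung count of 4 (4.71%) was 24 with DESeq2 (9.7%), 2 with no filter (1.93%), 1 without both (2.53%), and 1 to 12 with 1 left out. The ileum count of 0 was 0 throughout, as was linrodostat against CPB in all organs.

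Linrodostat against control, with the same shares in brackets: with DESeq2 the heart count of 0 (2.04%) was 7 (4.65%). The ileum count of 0 (0.213%) was then 2 (4.66%), and both counts were 0 with 1 animal left out. The kidney count of 16 (20%) was 32 with DESeq2 (25%), 7 with limma-voom (18%) and 2 with no filter (9.93%). It was 7 with only the 2 arms (17.9%), and 1 to 31 with 1 left out. The liver count of 5 (21.8%) was 16 with DESeq2 (25.6%), 8 with sex (22.2%), and 2 to 10 with 1 left out. The lung count of 7 (2.35%) was 34 with DESeq2 (6.2%), 1 with no filter (0.949%), 4 with only the 2 arms (2.96%), and 0 to 17 with 1 left out. The count of 1 member whose CPB difference varied between organs (12.9%) was 6 with the replicate block, animal as a fixed term (15.6%). It was 0 with the replicate block as a random effect (9.58%), and 0 to 2 with 1 animal left out. The causes of these shifts were not tested. Between arms no paired analysis was possible because each arm holds different animals. Members near 1 CPM, such as OASL in kidney and liver, rest on few counts.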
